A study of Neurospora crassa with 5 samples.

Results

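Transcripts of 7 genes of the Neurospora crassa circadian clock and its output were compared between uncrossed cultures and cultures 2 h after crossing. The genes were chosen by locus tag: frq (NCU02265), frh (NCU03363), ck-1a (NCU00685), fwd-1 (NCU04540), cka (NCU03124), ccg-1 (NCU03753) and ccg-7 (NCU01528, listed as gpd-1 in the gene table). They are 7 of the 10591 gene rows of the count table, and all 7 passed the filter on low counts that left 8638 genes for testing. Neurospora crassa is a filamentous fungus that forms immature female fruiting bodies, protoperithecia, which conidia (asexual spores) of the other mating type can fertilise. Every library came from the recipient strain FGSC 4564, a single strain with the genotype mat a[m1]s-3B cyh-1, mutant at the mating-type gene mat 1-2-1. It was grown for 6 days on synthetic crossing medium. The uncrossed group (2 libraries, replicates 1 and 3) was taken at 0 h, and the crossed group (3 libraries, replicates 1, 2 and 3) 2 h after conidia of the wild type FGSC 2489 were added. Each replicate was the tissue of a single plate, per the labels' protocols. Wild-type recipients were not analysed here.

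The Neurospora clock is a negative feedback loop. The White Collar complex, made of WC-1 and WC-2, activates frq, and the FRQ protein together with the helicase FRH then inhibits that complex. Casein kinases phosphorylate FRQ progressively, and the F-box protein FWD-1 delivers phosphorylated FRQ to the ubiquitin and proteasome pathway. Clock-controlled genes (ccg) are output genes whose transcripts cycle under this loop, and many of them also respond to light, nutrients and conidial development. The lighting and the time of day at harvest are not in the labels, and conidia were added to the crossed plates only. Crossing, the passing of 2 h and RNA carried in by the conidia therefore cannot be told apart here. In whole cultures, fewer cells of a type and less RNA per cell cannot be told apart either.

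Libraries held 25817200 to 39639683 counts. Ribosomal RNA genes took 14.3 and 21.3% of the counts in the uncrossed libraries, and 19.3, 34.0 and 33.6% in crossed replicates 1, 2 and 3. The groups were not compact. By the root mean square difference of log2 CPM over all tested genes, uncrossed replicate 3 was closer to crossed replicate 1 (0.48) than to uncrossed replicate 1 (0.62), and crossed replicates 2 and 3 were the closest pair (0.32). The 5 conidial marker genes (con-6, con-8 and con-10, with con-13 and the hydrophobin gene eas), all detected in every library, summed to 15160 CPM (replicate 1) and 30530 CPM (replicate 3) before crossing. After it they summed to 35720, 64030 and 59580 CPM (replicates 1, 2 and 3). The gene eas gave 9197 and 22810 CPM of the sums before crossing, and 27900, 47300 and 44020 CPM after it, in the same order. CPM are counts scaled to a common library size by TMM, which corrects for a few genes taking much of a library. Below, uncrossed values are given for replicates 1 and 3 and crossed values for replicates 1, 2 and 3, in that order.

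None of the 7 clock genes passed an adjusted p of 0.05 (edgeR's quasi-likelihood test, Benjamini-Hochberg over all 8638 tested genes), where 0.0463% of all tested genes did. The largest differences were in ccg-1, 1.65-fold higher after crossing (95% interval 1.07 to 2.55), and frq, 1.23-fold higher (1.01 to 1.51). These were the 2 members with an unadjusted p under 0.05, a rule that 21.3% of all tested genes met. DESeq2 called ccg-1 alone among the members, and it called 11.3% of all genes it gave an adjusted p. Transcripts of frh, ck-1a, fwd-1, cka and ccg-7 differed between the groups by a factor of 0.96 to 1.10. In 3 of the 7 genes (frq, ck-1a and ccg-1) every crossed library lay above both uncrossed ones, as it did in 21.3% of all tested genes. Of the 7 members, 6 had fold changes above 1 and cka had one below it, with a median log2 fold change of 0.11 over the members against 0.0008 over all tested genes. With plain library sizes in place of TMM only frq and ccg-1 stayed above 1, as the median of all genes then shifted to -0.21.

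**Figure D1:**
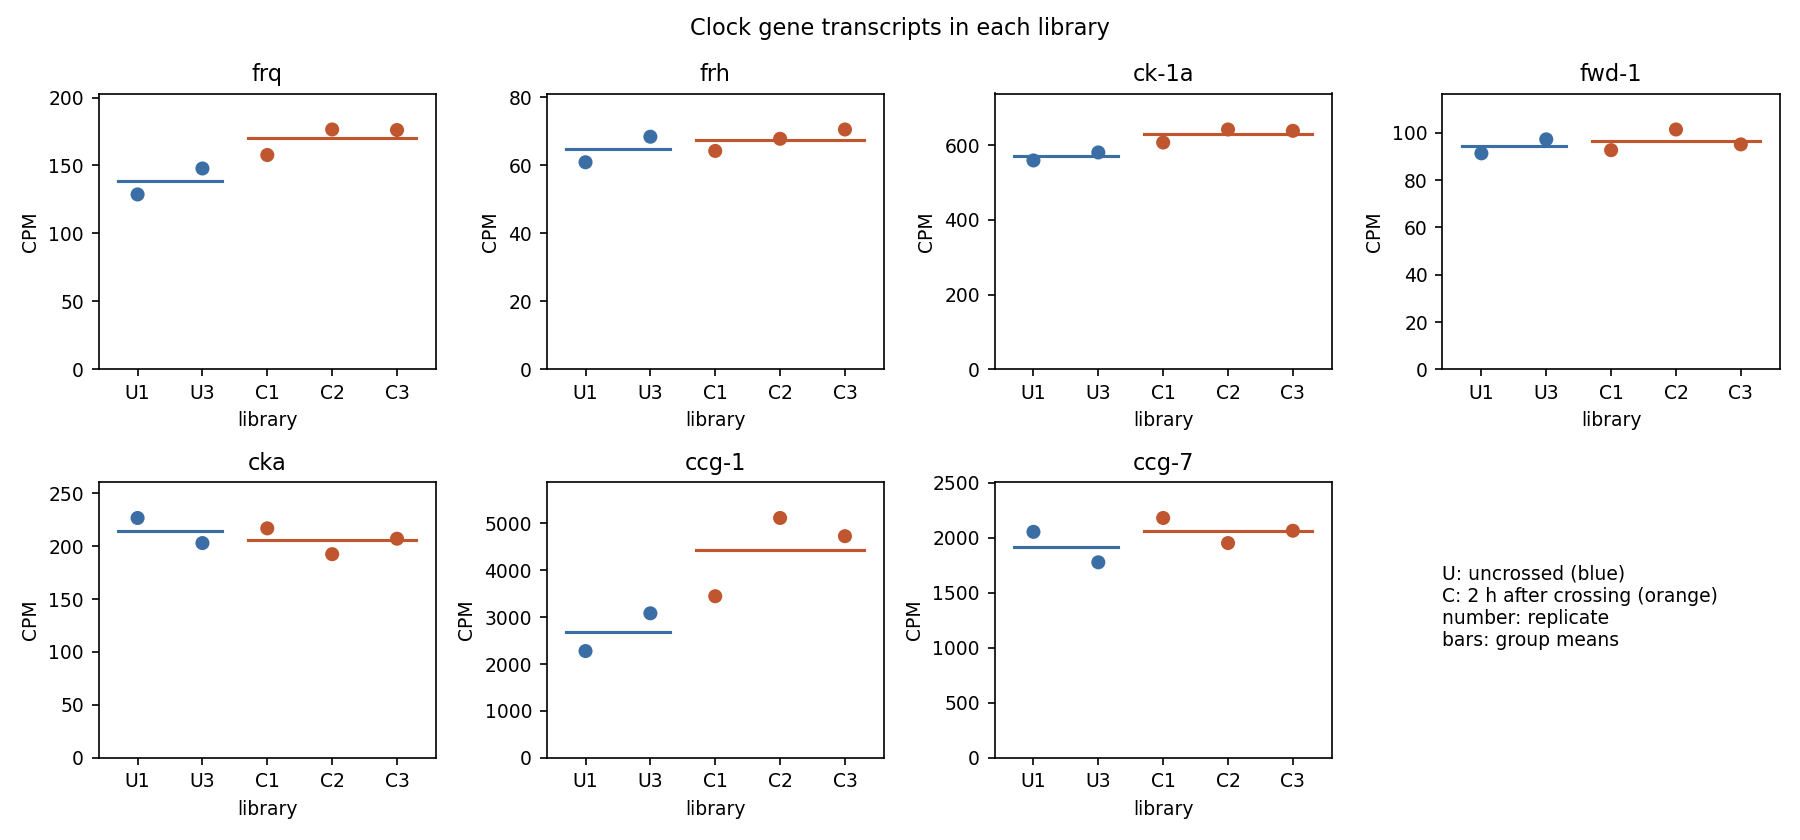
Transcript level of the 7 clock genes in each library, in CPM from 0 upward, with uncrossed libraries (U) in blue, crossed libraries (C) in orange and bars at the group means. Crossed values lie above uncrossed values in frq, ck-1a and ccg-1 and overlap with them in the other 4 genes.

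The levels of the 7 genes were compared per kilobase of gene span in the NC12 gene table, introns included. The order was the same in all 5 libraries, with no overlap between neighbours. The output gene ccg-1 stood highest, with 2950 to 6626 CPM per kb, and ranked 3 among 9757 protein-coding genes. The glyceraldehyde-3-phosphate dehydrogenase gene ccg-7 followed with 829 to 1018 CPM per kb (rank 21). Among the kinase genes, ck-1a had 138 to 159 CPM per kb and cka 82.0 to 96.6 CPM per kb. Lowest were frq with 26.7 to 36.6, fwd-1 with 21.9 to 24.3 and frh with 14.0 to 16.3 CPM per kb. The kinase transcripts were thus more abundant, per length, than the transcripts of FRQ and of its partner FRH. Even frh stood above 57.9% of all protein-coding genes.

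The gene frq encodes FREQUENCY, the negative element of the loop. Its transcript stood at 129 and 148 CPM in the uncrossed libraries and at 158, 177 and 176 CPM in the crossed ones. All crossed libraries lay above both uncrossed libraries, and the gap between the nearest values, uncrossed replicate 3 and crossed replicate 1, was 9.93 CPM. The groups were likewise apart in CPM in 41.9% of all tested genes (21.3% with crossed higher), so a separation of this kind was common in these libraries. The uncrossed mean was 138.3 ± 13.5 CPM (SD, n = 2) and the crossed mean 170.1 ± 10.8 CPM (SD, n = 3). On the log2 scale the difference of 0.30 (SE 0.12) gave an unadjusted p of 0.0453 and an adjusted p of 0.227 by edgeR, so it did not pass the threshold. Without single libraries the adjusted p by edgeR ran from 0.0994 to 0.613. Counting error is small beside these differences: 3782 to 6188 counts lay behind each value, with an exact 95% Poisson interval of at most ±3.24%. With plain library sizes in place of TMM the log2 difference of frq fell to 0.08 (adjusted p = 0.790 by edgeR). The median of all tested genes was then -0.21, and frq stood 0.29 above it. The frq locus is also known to give an antisense transcript, qrf. Whether strand was used in counting is not stated, so sense and antisense reads cannot be told apart in this row.

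The partner gene frh encodes the FRQ-interacting RNA helicase, which binds FRQ and keeps it stable. It had 60.9 and 68.4 CPM before crossing and 64.2, 67.8 and 70.5 CPM after it. These values overlapped, and the adjusted p was 0.725 by edgeR at a log2 fold change of 0.06 (SE 0.10). The 95% interval of 0.88- to 1.24-fold gives the sizes of change that these libraries leave possible. Over the 5 libraries the highest frh value was 1.16 times the lowest, against 1.37 times for frq.

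Because FRQ and FRH act together, the counts of their genes were also compared within each library, which needs no scaling between libraries. There were 2.11 and 2.16 frq counts for each frh count in the uncrossed libraries, and 2.46, 2.60 and 2.50 in the crossed ones. All crossed ratios were thus above both uncrossed ratios. The mean log2 ratio was 1.10 ± 0.02 (SD, n = 2) in the uncrossed and 1.33 ± 0.04 (SD, n = 3) in the crossed libraries, a difference of 0.24 (two-sided exact permutation test over 10 splits, p = 0.1, the smallest this design allows). Measured against frh in this way, 18.2% of all tested genes were higher in every crossed library. With each library left out the difference was 0.21 to 0.25. Its sign could not turn there, because the ratios of the groups did not overlap.

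Other ratios were added after the values had been seen, and p was adjusted over all 4 ratios. Counts of frq per fwd-1 count were 1.41 and 1.52 in the uncrossed libraries and 1.70, 1.74 and 1.85 in the crossed ones, without overlap (exact permutation p = 0.1, adjusted p = 0.2 for this ratio and for frq to frh). It holds the same frq counts as the ratio of frq to frh, so it is not a separate result. Against fwd-1, 19.8% of all tested genes were higher in every crossed library. The ratios of ck-1a to cka and of ccg-1 to ccg-7 overlapped between the groups (exact permutation p = 0.3 and adjusted p = 0.3 for both).

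**Figure D2:**
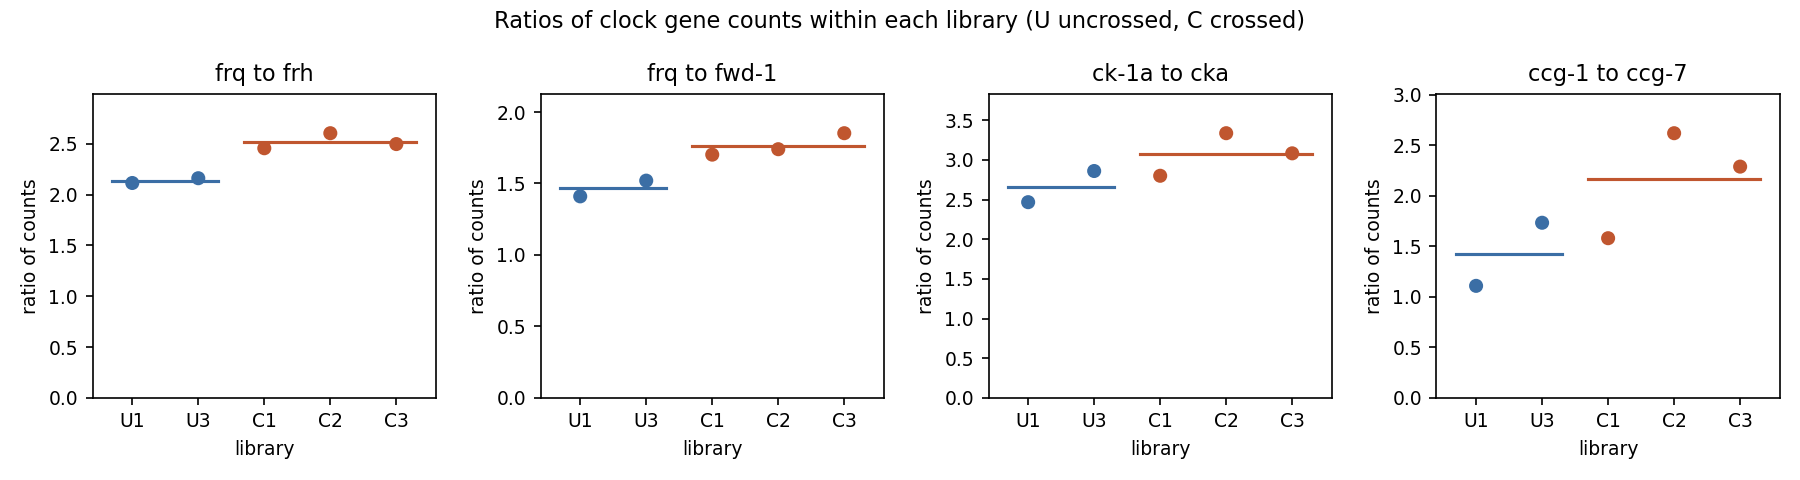
Ratio of raw counts of a pair of clock genes within each library (U uncrossed, C crossed), with bars at the group means. The ratios of frq to frh and of frq to fwd-1 are higher in all 3 crossed libraries than in both uncrossed ones, while ck-1a to cka and ccg-1 to ccg-7 overlap.

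Of the kinases, ck-1a encodes the casein kinase I that phosphorylates FRQ. Before crossing its transcript stood at 559 and 581 CPM, and afterwards at 607, 642 and 639 CPM. The groups did not overlap, with a gap of 26.6 CPM, but the difference was small. Its log2 fold change of 0.14 (SE 0.11) had an adjusted p of 0.477 by edgeR, and its sign turned with plain library sizes, to -0.07. The gene cka encodes the catalytic subunit of casein kinase II, another FRQ kinase, and is also known as prd-3. It had 227 and 203 CPM before crossing and 217, 192 and 207 CPM after it, with overlapping groups. Its log2 fold change of -0.06 (SE 0.11) had an adjusted p of 0.748 by edgeR.

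The gene fwd-1 encodes the F-box protein that recognises phosphorylated FRQ. Its values were 91.3 and 97.2 CPM in the uncrossed and 92.7, 101.4 and 95.1 CPM in the crossed libraries. This was the steadiest of the 7 genes: its highest value was 1.11 times its lowest, and 3.88% of the 8480 tested protein-coding genes had a smaller range on the log2 scale. Among the 2836 genes whose mean level lay within a factor of 2 of its own, 6.1% had a smaller range. The log2 fold change of 0.03 (SE 0.09) had an adjusted p of 0.850 by edgeR. In the NC12 gene table fwd-1 shares 224 bases with the neighbouring gene NCU04541, so reads from that stretch may be split between the genes.

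Ranges over the 5 libraries were narrower in 5 of the members than in frq and ccg-1. The log2 range was 0.15 in fwd-1, 0.20 in ck-1a, 0.21 in frh, 0.24 in cka and 0.29 in ccg-7. Each of these lies under the median of 0.52 for tested protein-coding genes, and between 3.88 and 20.7% of those genes had a smaller range. The range of frq was 0.46, also under that median (42.6% of genes smaller), and that of ccg-1 was 1.17 (81.6% smaller). Against genes within a factor of 2 of their own level, the shares with a smaller range were 53.2% for frq and 68.4% for ccg-1, the latter from 19 genes. For the other members they were 6.1% (fwd-1), 6.8% (ck-1a), 14.55% (frh), 15.6% (cka) and 26.0% (ccg-7, from 50 genes).

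**Figure D3:**
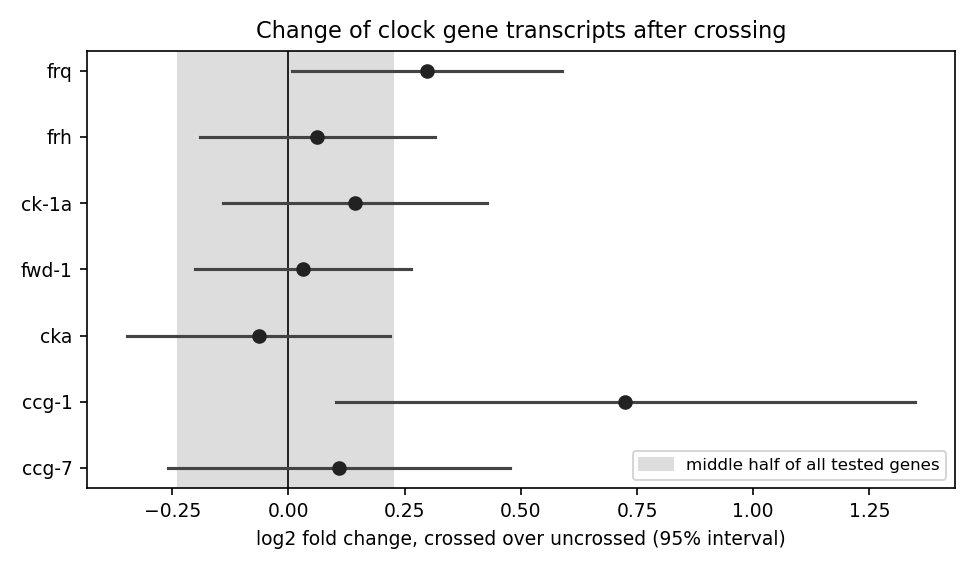
Log2 fold change of crossed over uncrossed libraries for the 7 clock genes (points) with 95% intervals (lines) from edgeR, and in grey the range between the quartiles of all tested genes (-0.24 to 0.22). The values of frq (0.30) and ccg-1 (0.73) lie outside the grey band and those of the other 5 genes inside it.

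The output gene ccg-1 varied most. It is a strongly expressed clock-controlled gene that is repressed by glucose, hence its other name grg-1. It reached 2277 and 3082 CPM in the uncrossed libraries, and 3446, 5115 and 4727 CPM in the crossed ones. The groups did not overlap, but crossed replicate 1 lay nearer to uncrossed replicate 3 (a gap of 364 CPM) than to the other crossed libraries. On average the uncrossed libraries had 2680 ± 569 CPM (SD, n = 2) and the crossed libraries 4429 ± 874 CPM (SD, n = 3). Its log2 fold change of 0.73 (SE 0.25) had an unadjusted p of 0.0298 and an adjusted p of 0.199 by edgeR, against an adjusted p of 0.036 by DESeq2. Over all alternatives the adjusted p ran from 0.036 to 0.597. From lowest to highest, the libraries stood in the order uncrossed 1, uncrossed 3, crossed 1, crossed 3, crossed 2. The same order held for frq and ck-1a and for 3 of the 5 conidial markers, and 6.58% of all tested genes shared it, more than any other of the 120 orders. In the markers con-8 and con-10 the groups overlapped, and con-10 was lowest in crossed replicate 1 (485 CPM). The summed level of the conidial markers, most of it from eas (ccg-2), moved with ccg-1 and frq in this way. The part of that sum in these results was not tested.

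The other output gene, ccg-7, encodes the glycolytic enzyme glyceraldehyde-3-phosphate dehydrogenase. Its level was 2054 and 1777 CPM before crossing, and 2180, 1952 and 2064 CPM after it. The groups overlapped, and uncrossed replicate 3 was the lowest library. Its log2 fold change of 0.11 (SE 0.15) had an adjusted p of 0.677 by edgeR. In 5 further glycolytic genes found by symbol, 0 passed the adjusted threshold, 1 of 5 had an unadjusted p under 0.05 (21.3% of all tested genes), a share near the background, and the median log2 fold change was -0.07. The gene with that p was emp-6, with 286 and 215 CPM before crossing and 194, 167 and 175 CPM after it (adjusted p = 0.186 by edgeR). The enolase gene emp-7 had a log2 fold change of -0.21 and the pyruvate kinase gene ace-8 one of -0.07, with adjusted p of 0.422 and 0.711 by edgeR.

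Of the other clock-controlled genes, 10 were found by symbol and all 10 were tested. None passed the adjusted threshold in edgeR, while 5 had an unadjusted p under 0.05, all higher after crossing, where 10.3% of all tested genes met that rule in that direction. DESeq2 called 4 of the 10, against 11.3% of all genes it gave an adjusted p. Their median log2 fold change was 0.52, with 7 above 0 and 3 below. The 3 genes with the smallest p were ccg-14, ccg-13 and ccg-12. The cerato-platanin gene ccg-14 had 90.1 and 143 CPM before crossing, and 221, 333 and 305 CPM after it (2.46-fold, adjusted p = 0.147 by edgeR and 3.62e-04 by DESeq2). For ccg-13 the values were 185 and 338 CPM before crossing, and 440, 607 and 589 CPM after it (adjusted p = 0.172 by edgeR). The copper metallothionein gene ccg-12 had 530 and 387 CPM before crossing, and 732, 727 and 645 CPM after it (adjusted p = 0.172 by edgeR).

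Clock-controlled genes differed in their course over the libraries. The pheromone gene ccg-4, whose range was the widest of the 12, had 9.12 and 69.5 CPM before crossing and 8.16, 128.2 and 128.1 CPM after it (adjusted p = 0.611 by edgeR). It was low in both libraries numbered 1 and high in the other 3, so the groups overlapped. In other values singled out after they had been seen, ccg-6 had 3433 and 2062 CPM before crossing, and 2188, 1157 and 1161 CPM after it. For ccg-16 the values were 1960 and 773 CPM, and then 1057, 475 and 466 CPM. In both genes crossed replicate 1 lay between the uncrossed libraries, and the adjusted p was 0.255 and 0.309 by edgeR. The trehalose synthase gene ccg-9 and the cell wall gene ccg-15 had log2 fold changes of -0.12 and 0.08. The hydrophobin gene eas, which coats conidia, is ccg-2 and counts among both the outputs and the conidial markers. It had 9197 and 22810 CPM before crossing, and 27900, 47300 and 44020 CPM after it (adjusted p = 0.212 by edgeR and 0.0239 by DESeq2).

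**Figure D4:**
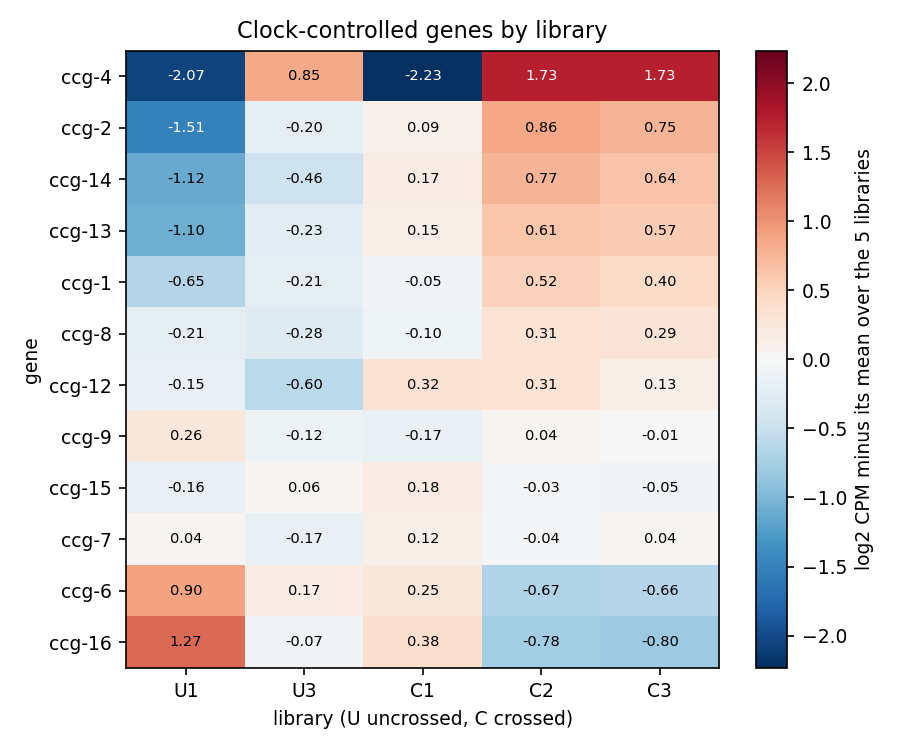
Log2 CPM of 12 clock-controlled genes in each library minus the gene's mean over the 5 libraries (U uncrossed, C crossed, red above and blue below the mean). The 6 genes from ccg-2 to ccg-12 are lowest in an uncrossed library, ccg-4 is low in U1 and C1, ccg-6 and ccg-16 are lowest in crossed replicates 2 and 3, and ccg-7, ccg-9 and ccg-15 stay within 0.26 of their means.

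The remaining clock genes were taken from a list of regulators, of which 16 were found by symbol. None passed the adjusted threshold in edgeR, and 1 of the 16 had an unadjusted p under 0.05, where 21.3% of all tested genes did. That gene was csp-1, which encodes a repressor that the White Collar complex activates and that carries clock signals to metabolic genes. Its transcript stood at 123 and 157 CPM before crossing, and at 202, 252 and 245 CPM after it. All crossed values were above both uncrossed ones, 1.67-fold higher on fitted values (adjusted p = 0.156 by edgeR and 0.00322 by DESeq2). Next by p was wc-1, with 138 and 164 CPM before crossing and 178, 184 and 190 CPM after it (log2 fold change 0.28, SE 0.12, adjusted p = 0.241 by edgeR). The thioredoxin reductase gene cys-9, with mutants known for altered rhythms, had a log2 fold change of -0.23 (adjusted p = 0.276 by edgeR). The genes wc-2 and vvd were added after their values had been seen. For wc-2 there was a log2 fold change of 0.14 (adjusted p = 0.455 by edgeR), and vvd, which encodes a blue-light photoreceptor that damps the White Collar complex, had one of -0.09 (adjusted p = 0.802 by edgeR). The median over the 16 genes was 0.0039, with 8 above and 8 below 0, but with plain library sizes 2 were above 0.

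The COP9 signalosome regulates the ubiquitin ligase that FWD-1 belongs to, so its genes and those of the ligase were examined beside fwd-1. The list also held fwd-2. Of 10 genes, 0 passed the adjusted threshold in edgeR (0.0463% of all tested genes) and 0 in DESeq2 (11.3%), and 1 had an unadjusted p under 0.05 (21.3%). Of the log2 fold changes, 8 were below 0 and 2 above, with a median of -0.11, and with plain library sizes 1 was above 0. The signalosome gene csn-3 had 64.7 and 59.5 CPM before crossing and 55.6, 46.4 and 50.2 CPM after it (log2 fold change -0.29, SE 0.11, adjusted p = 0.231 by edgeR). For csn-5, which encodes another subunit, the log2 fold change was -0.25 (adjusted p = 0.251 by edgeR). The gene fwd-2 had one of 0.42 (adjusted p = 0.308 by edgeR).

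Light-induced genes share the White Collar complex with frq as their activator, and 8 were examined. None passed the adjusted threshold in edgeR. At an unadjusted p under 0.05, 2 were higher after crossing (10.3% of all tested genes) and 1 was lower (11.0%). DESeq2 called 2 of the 8, against 11.3% of all genes it gave an adjusted p. The geranylgeranyl diphosphate synthase gene al-3 had 261 and 330 CPM before crossing and 554, 634 and 621 CPM after it (adjusted p = 0.114 by edgeR and 1.03e-07 by DESeq2). The phytoene synthase gene al-2 went the other way, with 2477 and 1689 CPM before crossing and 1211, 1179 and 1218 CPM after it (adjusted p = 0.159 by edgeR and 0.00272 by DESeq2). The gene phr had a log2 fold change of 0.38 (adjusted p = 0.229 by edgeR).

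For each clock gene, the genes with the most similar course over the 5 libraries were sought among 1017 genes that have a symbol and a mean of at least 10 CPM. Likeness was the root mean square distance of log2 CPM, each gene centred on its own mean. Closest to frq were hat-6 (distance 0.03), pex31 (0.03) and tre-2 (0.03), and tre-2 had 175, 203, 228, 244 and 243 CPM across the libraries. Closest to frh were the chitin synthase gene chs-1 (0.02), stk-38 (0.02) and gfa1 (0.03). The kinase gene ck-1a was nearest to cse-1, kin-3 and kal-1 (0.02 each), and cka to trp-4 (0.02), asf-1 (0.02) and nor-1 (0.03). For fwd-1 they were gh76-7 (0.03), the phosphatase gene pph-3 (0.04) and uvs-6 (0.04). The gene pph-3 is also named ppp-1 and as such is in the list of clock regulators. The nearest genes to ccg-1 were farther off, at 0.06 for ncw-4, 0.07 for cot-2 and 0.08 for gel-5, and ccg-7 was nearest to nmt-1 (0.03), ubi (0.04) and inl (0.05). Among the 7 clock genes themselves the nearest were frh and fwd-1 (0.06), and the farthest apart were cka and ccg-1 (0.49). With 5 libraries these distances are a description only.

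The authors' deposited table gives each gene an expression estimate per stage relative to the lower stage, with an interval. In the authors' deposited table frq was 1.05 times and ccg-1 1.38 times higher in the crossed stage. There, uncrossed was higher by 1.05 times for ck-1a and ccg-7, 1.12 for frh, 1.14 for fwd-1 and 1.20 for cka. All 7 pairs of intervals in the authors' deposited table lay apart, while by CPM the libraries of the groups overlapped in frh, fwd-1, cka and ccg-7. The directions in the authors' deposited table were those of the fit with plain library sizes for all 7 genes. For frh, ck-1a, fwd-1 and ccg-7 they were opposite to those of the main fit with TMM. The deposited table and both fits rest on the same libraries.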

How the data were processed

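RNA sequencing of 5 libraries was used. The authors deposited raw counts per gene, 1 column per library. CASAVA 1.8.2, fastp, HISAT2 2.1.0 and StringTie 1.3.3b are named, without roles, per the submitters' processing notes. Neither the genome build, the annotation nor any use of strand is stated. The authors' deposited table of relative expression holds a ratio per stage, per the file headers, and the program behind it is not given. Of the 10591 gene rows, 10590 matched the RefSeq NC12 gene table by locus tag, used for symbols and gene spans. A row with 6 values for 5 libraries was left out.

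Counts were tested with edgeR 4.0.16 (R 4.3.3): filterByExpr, TMM, robust quasi-likelihood fit on the group over all 5 libraries, two-sided, Benjamini-Hochberg over 8638 genes, threshold 0.05. Standard errors and 95% intervals come from the quasi-likelihood F statistic. Log2 CPM used a prior count of 2. The fit was also run on counts simulated with its own dispersions and independent libraries, a check of the code alone. Poisson intervals hold counting error alone, because without molecular identifiers reads can be copies of the same molecule. Since the labels call plates replicates but use a single strain, p-values measure the spread between plates.

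The members and all gene lists were chosen with earlier results of these data known, so no p was adjusted over a list alone. All 7 members were named, and in each list the genes past the threshold or, if fewer than 3, the 3 with the smallest p. Names not matched in the gene table were prd-1, prd-2, csn-7a and pgk-1. Alternatives were DESeq2 1.42.0, limma-voom (limma 3.58.1), other scalings and filters, no ribosomal RNA genes, a block for the replicate number, and leaving out libraries in turn. A planned search of promoter motifs was not run, as promoter sequences were not used here.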

Additional observations from a re-analysis of the deposited data

How the results depend on the processing

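In 13 alternative fits, 81 of 91 log2 fold changes of the 7 clock genes kept their direction and their side of the threshold, 1 passed it and 9 turned sign. The value that passed was ccg-1 in DESeq2 (0.72, adjusted p = 0.036). The signs of frq (0.08 to 0.40) and ccg-1 (0.49 to 0.96) held in all 13. Fits that left out a library could hardly turn them, because the CPM of the groups did not overlap in either gene. The other fits reuse the same counts. With plain library sizes, where the median of all tested genes was -0.21, frh stood at -0.15, ck-1a at -0.0746, fwd-1 at -0.19 and ccg-7 at -0.10. Relative to that median all 4 were above 0, at 0.06, 0.14, 0.03 and 0.11. With single libraries left out, frh ran from -0.019 to 0.148, fwd-1 from -0.0124 to 0.077 and cka from -0.143 to 0.0176, the turned signs falling without uncrossed replicate 1 and, for fwd-1 at -0.0057, also without crossed replicate 2. The log2 difference of the frq to frh ratio was 0.21 to 0.25 with each library left out. Its sign could not turn there, because the ratios did not overlap between the groups.

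The number of genes past the threshold, 4 in edgeR, was 987 in DESeq2 and 266 with the replicate number as a block. Leaving out crossed replicate 1 gave 762 and leaving out uncrossed replicate 3 gave 192, while edgeR called 0 with any of the other 3 libraries left out (871 to 877 genes at an unadjusted p under 0.05). Of the 7 clock genes, ccg-1 in DESeq2 was the only call in these fits, and the cause of the spread was not tested. With the replicate block fwd-1 turned to -0.0054, and the adjusted p by edgeR became 0.0231 for ccg-14 and 0.0496 for al-3 and no other call of a named gene changed. Without crossed replicate 1 edgeR also called csp-1, ccg-14, ccg-8, al-3, al-1, phr, con-6 and con-10 (adjusted p of 0.0286 to 0.0483), and without uncrossed replicate 3 al-2, al-3 and con-13 (0.0444 to 0.0493). Same-numbered libraries deviated together across genes at 0.257 (number 1) and 0.224 (number 3), and no label explains the numbers. A lone uncrossed library was taken to vary as much as the crossed ones do. Every one of the 7 clock genes had at least 1789 counts per library.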
